A study of Homo sapiens with 4 samples.

Results

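The genes described here are 10 parts of the machinery that takes a cell through G1 and into S phase. They are the D-type cyclins CCND1, CCND2 and CCND3, the E-type cyclins CCNE1 and CCNE2, the kinases CDK2, CDK4 and CDK6, the phosphatase CDC25A and the A-type cyclin CCNA2. They were chosen by gene symbol, with no cutoff on a measured value, but with earlier results of these data known. All 10 were found among the 60671 genes of the expression table.

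Poly(A+) RNA of H9, a human embryonic stem cell line, was sequenced in 4 libraries from untreated cells grown in mTeSR medium. Control H9 cells gave 2 libraries. The other 2 libraries came from H9 cells in which CFIm25 was edited and a 3Flag-tagged CFIm25 was then overexpressed, called KO+OE here. CFIm25, encoded by NUDT21, is a subunit of the complex that helps choose where the 3′ end of an mRNA is cut and polyadenylated, and the study asked, among other things, how long its edited cells stay in G1. The sample names write the edit as KO and the series title as KD. The study describes edited clones that keep some altered protein and re-expression by lentivirus in a line made from a single clone. It names both H9 control cells and mock controls that had received the empty CRISPR vector. The sample titles say only control H9, so which of these gave the control libraries is not known here. Edited cells without re-expression are not analysed here, so the comparison is that of the re-expressing line with control cells. The labels do not say that the replicates were separate cultures, and p-values then measure only the spread between these libraries.

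D-type cyclins are made in response to growth signals and bind CDK4 or CDK6, and the complexes begin to phosphorylate the retinoblastoma protein RB, which otherwise holds E2F transcription factors in check. E-type cyclins bind CDK2 and complete that phosphorylation, CDC25A removes inhibitory phosphates from CDK2, and CCNA2 takes over as partner of CDK2 in S phase. Embryonic stem cells are known for a short G1.

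Levels are taken to be in TPM, a relative transcript abundance in which reads are divided by transcript length and scaled to a common total. The unit was inferred from the values, and comparisons of genes with each other within a library rest on it. The file holds no read counts, and the sequencing depth is unknown. The listed values of a library summed to between 986853 and 987078 TPM, and between 12179 and 12332 genes reached 1 TPM. Differences between the groups were tested with limma on log2(TPM + 1) over the 12319 genes whose mean reached 1 TPM, with Benjamini-Hochberg adjustment over all of them, and only 1 gene passed an adjusted p under 0.05. NUDT21 was at 161 and 152 TPM in the controls against 162 and 157 TPM with re-expression, a log2 difference of 0.03 (95% confidence interval -0.09 to 0.14). These values do not separate transcripts of the edited gene from those of the transgene, so they check neither the edit nor the re-expression. The embryonic stem cell marker POU5F1 lay between 2164 and 2212 TPM, and all 6 stem cell markers were above 15 TPM in every library. Of 13 markers of other cell types, 10 were under 1 TPM, with SOX17 of endoderm and PTPRC of blood at 0 in every library. The other 3 were GATA6 at 4.35 to 8.39 TPM, COL1A1 at 53.9 to 55.6 TPM and COL1A2 at 13.0 to 14.5 TPM, and none of them was called between the groups.

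The 3 D-type cyclins were present at like levels. CCND1 (ENSG00000110092, GRCh38 chr11:69641156-69654474), the D-type cyclin best known as an oncogene, was at 19.4 and 21.6 TPM in control cells and at 23.7 and 20.7 TPM in KO+OE cells. Its higher control value lay between both KO+OE values, so the groups overlapped. CCND2 (ENSG00000118971, GRCh38 chr12:4273762-4305353) was at 15.9 and 14.1 TPM in control cells and at 15.3 and 12.4 TPM in KO+OE cells. CCND3 (ENSG00000112576, GRCh38 chr6:41934933-42050035) was at 24.9 and 23.5 TPM in control cells and at 25.1 and 20.7 TPM in KO+OE cells. In each of CCND2 and CCND3, KO+OE replicate 2 was the lowest library and KO+OE replicate 1 lay within 1 TPM of a control library.

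Within each library, CCND3 was above CCND1 and CCND1 above CCND2. CCND3 gave 38.5% to 41.4% of the summed D-type cyclin TPM, CCND1 32.2% to 38.5% and CCND2 23.0% to 26.4%. The order of CCND3 and CCND1 rested on little in KO+OE replicate 2, where both were at 20.7 TPM and their ratio was 1.001, and their ranges over the libraries overlapped.

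Of the E-type cyclins, the messages measured came almost entirely from CCNE1. CCNE1 (ENSG00000105173, GRCh38 chr19:29811991-29824312) was at 22.8 and 25.2 TPM in control cells and at 23.5 and 23.7 TPM in KO+OE cells. Both KO+OE values lay between the control values. CCNE2 (ENSG00000175305, GRCh38 chr8:94880224-94896693), the second E-type cyclin, was at 0.03 and 0.05 TPM in control cells and at 0.10 and 0.04 TPM in KO+OE cells, a few steps of the 0.01 TPM to which the table is rounded. CCNE1 thus made up 99.6% to 99.9% of the E-type sum. CCNE2 was under the 1 TPM minimum and was not tested.

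**Figure D1:**
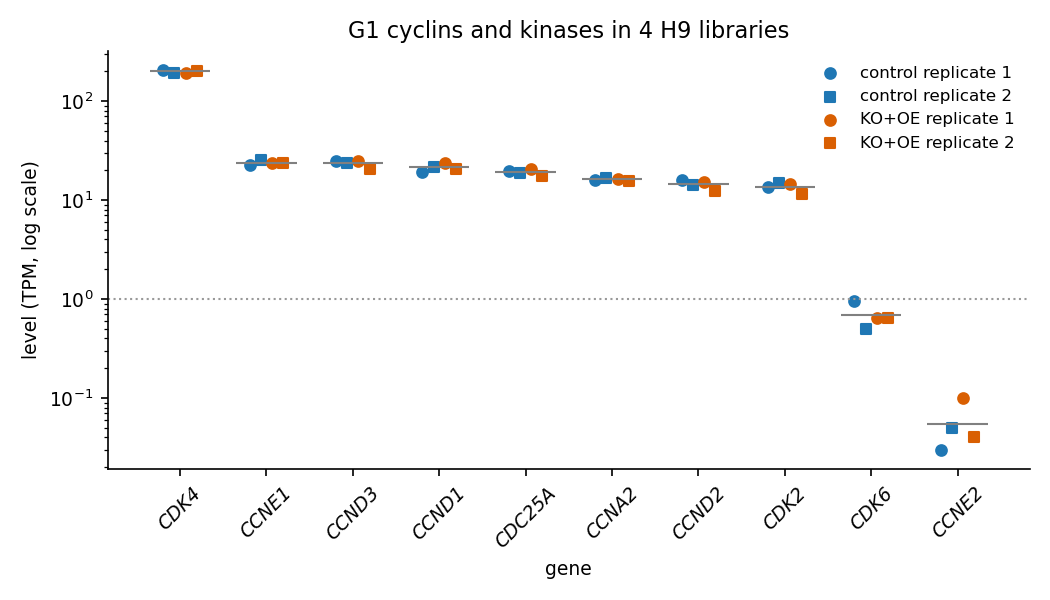
Level of each of the 10 genes in the 4 libraries, in TPM on a log axis, with genes in order of mean level, controls in blue, KO+OE in orange, and the 1 TPM minimum as a dotted line. CDK4 stands near 200 TPM, 7 genes lie between 11.5 and 25.2 TPM, and CDK6 and CCNE2 lie under 1 TPM in every library.

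The summed D-type cyclins exceeded the summed E-type cyclins in every library. The D-type sum was 60.2 and 59.2 TPM in control cells (59.7 ± 0.714, SD, n = 2) and 64.1 and 53.7 TPM in KO+OE cells (58.9 ± 7.31, SD, n = 2). The E-type sum was 22.8 and 25.2 TPM in control cells (24.0 ± 1.73, SD, n = 2) and 23.6 and 23.7 TPM in KO+OE cells (23.7 ± 0.0849, SD, n = 2). The D-to-E ratio was therefore 2.64 and 2.35 in control cells and 2.71 and 2.26 in KO+OE cells. Replicate 1 was the higher library in both groups, and the control ratios lay inside the KO+OE range.

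The mean D-to-E ratio was 2.50 ± 0.209 (SD, n = 2) in control cells and 2.49 ± 0.318 (SD, n = 2) in KO+OE cells. On the log2 scale the ratios were 1.32 ± 0.12 and 1.31 ± 0.18, and KO+OE minus control was -0.0072, far less than either SD. An exact permutation test of 2 libraries against 2 cannot give a two-sided p below 0.3333, so none was run. A single library sets the sign of that difference, which was -0.14 without KO+OE replicate 1, -0.09 without control replicate 2, 0.08 without control replicate 1 and 0.12 without KO+OE replicate 2. No single D-type cyclin was above CCNE1 in every library: CCND3 was above it in 2 of 4 libraries, and the ratio of CCNE1 to CCND3 ran from 0.914 to 1.14.

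**Figure D2:**
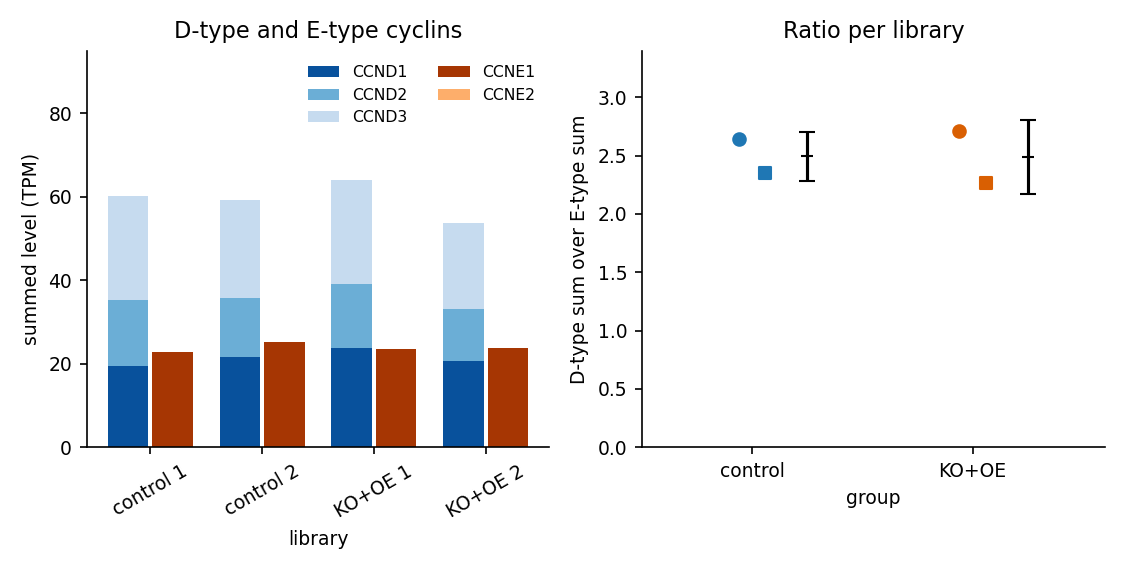
Left, D-type cyclins (blue, stacked) and E-type cyclins (red, stacked) in TPM for each library, where the CCNE2 share is too small to see. Right, the ratio of both sums for replicate 1 (circles) and replicate 2 (squares) of each group, with the mean and SD beside them as bars. The ratios of the 4 libraries run from 2.26 to 2.71 and overlap between the groups.

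Among the kinases, the RNA of CDK4 was far above the rest. CDK4 (ENSG00000135446, GRCh38 chr12:57747727-57752310), the kinase that D-type cyclins activate, was at 208 and 194 TPM in control cells and at 195 and 202 TPM in KO+OE cells. Both KO+OE values lay inside the control range. CDK6 (ENSG00000105810, GRCh38 chr7:92604921-92836573), its close relative and other partner of the D-type cyclins, was at 0.96 and 0.50 TPM in control cells and at 0.64 TPM in both KO+OE libraries. CDK4 therefore gave 99.5% to 99.7% of the summed CDK4 and CDK6 TPM, at 216 to 388 times the CDK6 level. CDK6 was not tested, being under 1 TPM in all 4 libraries.

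CDK2 (ENSG00000123374, GRCh38 chr12:55966830-55972789), the partner of the E-type and A-type cyclins, was at 13.5 and 14.8 TPM in control cells and at 14.5 and 11.5 TPM in KO+OE cells. KO+OE replicate 1 lay between the control libraries and KO+OE replicate 2 below both. The CDK4 level was 13.1 to 17.6 times that of CDK2. Set against their cyclins, CDK4 and CDK6 together were at 3.05 to 3.77 times the D-type sum. CCNE1 was at 1.63 to 2.07 times CDK2. In every library the listed kinase level exceeded the cyclin level for the D-type pair, and the reverse held for the E-type pair. Both ratios were at an extreme in KO+OE replicate 2, which had the highest value of each. The part of base composition and overlapping genes, described below, in these ratios was not tested.

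CDC25A (ENSG00000164045, GRCh38 chr3:48157146-48188417), the phosphatase that activates CDK2 at the G1/S transition, was at 19.9 and 18.7 TPM in control cells and at 20.4 and 17.5 TPM in KO+OE cells. The control values lay inside the KO+OE range. CCNA2 (ENSG00000145386, GRCh38 chr4:121816444-121823883), the cyclin of S phase and G2, was at 16.03 and 16.83 TPM in control cells and at 16.4 and 15.7 TPM in KO+OE cells, which also overlapped. CCNA2 had the smallest spread of the 10 genes, with a coefficient of variation over the libraries of 3.05%, followed by CDK4 with 3.22% and CCNE1 with 4.25%. The widest spreads were those of the 2 genes under 1 TPM, at 28.4% for CDK6 and 56.5% for CCNE2, and among the other genes those of CDK2 with 11.1% and CCND2 with 10.8%.

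By mean level the order was CDK4 at 200 TPM, CCNE1 at 23.8, CCND3 at 23.5, CCND1 at 21.4, CDC25A at 19.1, CCNA2 at 16.2, CCND2 at 14.4, CDK2 at 13.6, CDK6 at 0.685 and CCNE2 at 0.055 TPM. Neighbours were taken to differ where all 4 libraries gave the same order and the ranges did not overlap. That held for 4 of the 9 neighbouring pairs. The rule covers only the spread between libraries. The part of transcript length, base composition and overlapping genes in the order was not tested. CDK4 was 7.71 to 9.12 times CCNE1, CDC25A 1.11 to 1.24 times CCNA2, CDK2 14.1 to 29.6 times CDK6 and CDK6 6.40 to 32.0 times CCNE2. The other neighbours, among them CCNE1 with CCND3 and CCND1 with CDC25A, did not differ beyond their spread.

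No gene of the 10 passed the test between KO+OE and control cells. Of the 8 tested, 0 passed an adjusted p under 0.05 in limma, where 0.00812% of all tested genes did, and 0 passed an unadjusted p under 0.05, where 5.33% of all tested genes did. In 0 of the 8 were both KO+OE libraries above both controls, against 14.5% of all tested genes, and in 0 were both below, against 19.6%. In bulk RNA, a change in the share of cells in a phase and a change in RNA per cell cannot be told apart.

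The largest differences were small. CCND1 was at 20.5 ± 1.58 TPM in the controls and 22.2 ± 2.14 TPM after re-expression (SD, n = 2 each), a log2 difference of 0.11 with a 95% confidence interval from -0.14 to 0.36 and limma's adjusted p = 0.952. CDK2 was at 14.2 ± 0.905 TPM in the controls and 13.0 ± 2.13 TPM after re-expression (SD, n = 2 each), a log2 difference of -0.13 with an interval from -0.46 to 0.20 and an adjusted p = 0.960 from limma. CCND2 was at 15.0 ± 1.27 TPM and 13.8 ± 2.06 TPM (SD, n = 2 each), a log2 difference of -0.12 with an interval from -0.44 to 0.21. In all 3 genes the difference of the means was smaller than the SD of the KO+OE libraries. Against the SD of the controls it was larger for CCND1 and CDK2 and smaller for CCND2.

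The remaining differences were closer to 0. They were -0.08 for CCND3 (interval -0.35 to 0.19), -0.03 for CCNA2 (-0.22 to 0.16), -0.03 for CDC25A (-0.27 to 0.22), -0.02 for CCNE1 (-0.21 to 0.17) and -0.02 for CDK4 (-0.14 to 0.10), all on the log2(TPM + 1) scale, which understates changes of low genes. In each of the 8 genes the interval stayed within a 2-fold change in either direction, which was so for 92.6% of all tested genes. CDK4 had the narrowest interval. A miss of the threshold does not show that the groups were equal, and the intervals give the sizes that 2 libraries against 2 leave possible.

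**Figure D3:**
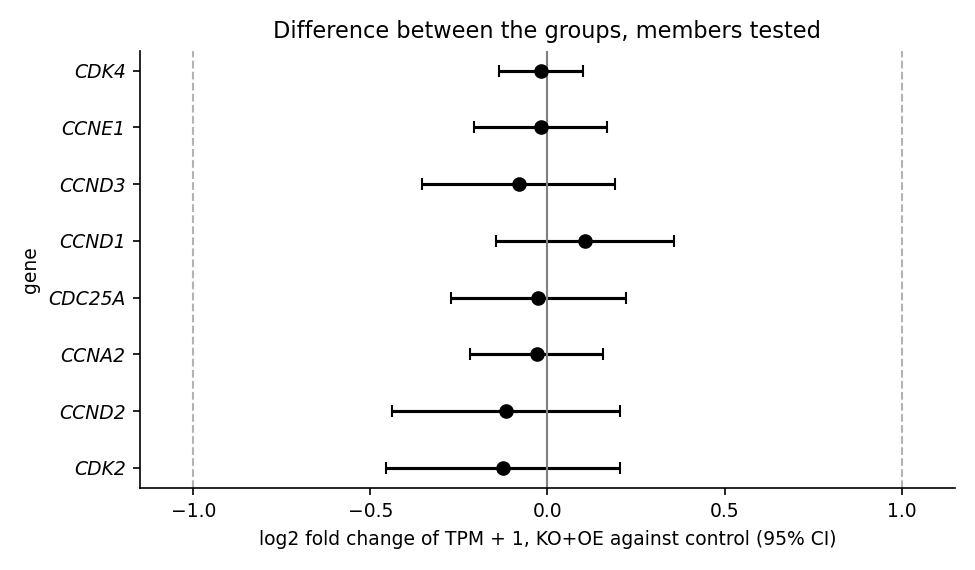
Log2 difference of TPM + 1, KO+OE against control, for the 8 genes tested, as points with 95% confidence intervals from limma. Every interval contains 0 and ends inside a 2-fold change, from -0.46 for CDK2 on the low side to 0.36 for CCND1 on the high side.

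Of the 8 log2 differences, 7 were below 0 and 1 above, with a median of -0.03. Over all tested genes 6710 were below 0 and 5609 above, with a median of -0.01. The split among the 8 genes turned on KO+OE replicate 2. It was the lowest library for 5 of them, CCND2, CCND3, CDK2, CDC25A and CCNA2, and the highest for 0. Without that library, 6 of the 8 were above 0 and 2 below. The same library was the lowest for 30.2% and the highest for 19.7% of all tested genes. It also had the fewest genes at 1 TPM, 12179 against 12284 to 12332, and the largest share of mitochondrial transcripts, 22.1% against 21.0% to 21.6%. The part of these library values in the members' levels was not tested.

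The genes whose levels lay nearest to those of CCND1 across the libraries were PHC2, RIPOR2 and TMEM50A, with mean absolute differences of 0.0298, 0.0393 and 0.0401 in log2(TPM + 1) over the 4 libraries. For CCNE1 they were MRPS5, FAM131B and LAD1, with 0.0129, 0.0168 and 0.0177. None of these 6 is another G1 cyclin or kinase, and with 4 libraries and groups that overlap the measure compares levels, not changes.

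Both genes under 1 TPM also had the transcripts lowest in G and C. The canonical transcript held 34.6% G and C in CCNE2 and 39.7% in CDK6, against 41.9% in CCNA2, 45.5% in CCND2, 47.7% in CDK2, 50.3% in CCND1, 51.7% in CCNE1, 51.8% in CDC25A, 52.0% in CDK4 and 59.97% in CCND3. Over the table as a whole, the median level also rose with G and C up to 65%. Among protein-coding genes the median level was 0.273 TPM at up to 35% and 0.527 TPM from 35% to 40%, but 3.03 TPM from 50% to 55% and 7.20 TPM from 60% to 65%. CDK6 also has the longest canonical transcript of the 10 genes, with 11663 bases against 1865 for CDK4. The part of base composition or length in the low levels of CCNE2 and CDK6 was not tested.

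Overlapping genes bear on some of the levels, since the sources used here do not say whether reads were assigned by strand. In GENCODE 44, 1369 exonic bases of CDK4 are shared with TSPAN31 on the opposite strand, which was at 15.7 to 19.9 TPM, and 89 exonic bases of CDK2 with PMEL, which was at 91.2 to 96.6 TPM. CCNA2 shares 254 exonic bases with EXOSC9, at 7.71 to 8.70 TPM, and CCND1 497 with LTO1, at 3.47 to 5.76 TPM. For CCNE2, 1629 exonic bases are shared with INTS8, at 1.43 to 3.30 TPM. Reads from these stretches cannot be given to either gene without strand. CCND2 shares 999 exonic bases with ENSG00000285901 on the same strand, at 0.94 to 1.27 TPM, where strand would not tell the genes apart either.

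**Figure D4:**
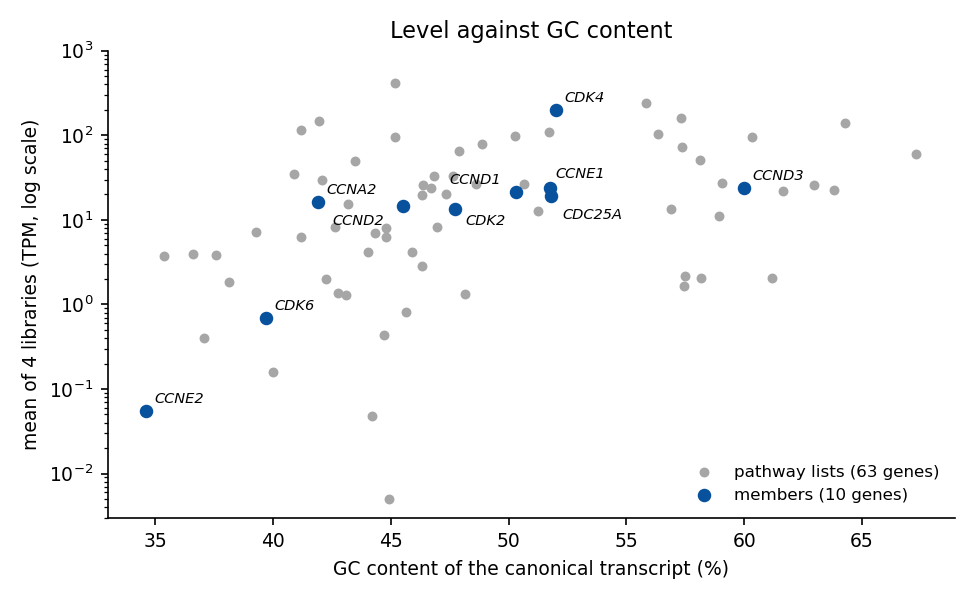
Mean level over the 4 libraries in TPM on a log axis against the percentage of G and C in the canonical transcript, for the 10 genes (blue, named) and the 63 genes of the pathway lists (grey). CCNE2 at 34.6% and CDK6 at 39.7% are the lowest of the 10 on both axes, and CDK4 at 52.0% is the highest in level.

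The rest of the pathway was read from 6 lists with 63 genes, of which 57 were tested. By limma, 0 passed the adjusted threshold, and 3 passed an unadjusted p under 0.05, 2 higher and 1 lower in KO+OE cells, where 5.33% of all tested genes did. KO+OE was above control without overlap in 11 of the 57, or 19.3%, against 14.5% of all tested genes, and below it in 8, or 14.04%, against 19.6%. The differences were above 0 in 31 genes and below 0 in 26, with a median of 0.01. None of the 3 genes kept the unadjusted threshold in every alternative. E2F5 and FBXO31 each lost it in 3 of the 4 fits that left out a library, with an unadjusted p of up to 0.0881 and 0.0893 in limma, and RRM2 also in 3 of those 4, with up to 0.192, and in 4 of the 8 alternatives with all libraries, with up to 0.0863.

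The CDK inhibitors hold the cyclin complexes back. CDKN1A, which encodes p21, was at 166 and 157 TPM in control cells and at 165 and 155 TPM in KO+OE cells, the highest of the 7 inhibitors. CDKN1B, which encodes p27, was at 4.06 and 4.11 TPM in control cells and at 4.29 and 4.30 TPM in KO+OE cells, a log2 difference of 0.06 that was the highest of the list and did not pass the test. CDKN2A, whose products include the CDK4 inhibitor p16, had the lowest, -0.05, from 2.49 and 1.72 TPM to 1.93 and 2.03 TPM. CDKN2B and CDKN2C, inhibitors of the same family, were at or under 0.11 TPM in every library. Of 5 inhibitors tested, 3 had a difference above 0 and 2 below, with a median of 0.03. In limma 0 of the 5 passed the unadjusted threshold, which 5.33% of all tested genes passed. The level of CDKN1A was 35.95 to 40.96 times that of CDKN1B.

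The RB proteins and E2F factors are the targets of the G1 kinases. RB1 was at 0.31 and 0.26 TPM in control cells and at 0.83 and 0.22 TPM in KO+OE cells, under the minimum, with 37.1% G and C in its transcript, and RBL1 was also under the minimum. The RB relative RBL2 had the lowest difference of the list, -0.42, from 1.30 and 2.18 TPM in control cells to 1.07 and 0.97 TPM in KO+OE cells, and did not pass the test. It was -0.19 without control replicate 2, -0.66 without control replicate 1 and -0.68 with a pseudocount of 0.1, and -0.16 with one of 5. E2F5, an E2F factor that works with the RB relatives as a repressor, was at 7.58 and 7.0 TPM in control cells and at 9.26 and 9.40 TPM in KO+OE cells. Both KO+OE libraries lay above both controls, with a log2 difference of 0.32 (interval 0.08 to 0.56), limma's unadjusted p = 0.0194 and adjusted p = 0.928. E2F1, the activator, was at 21.2 to 23.0 TPM with a difference of 0.0041. Of 10 genes tested, 6 had a difference above 0 and 4 below, with a median of 0.05.

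Among ubiquitin ligase parts that act on G1 cyclins and their inhibitors, FBXO31, a receptor for the destruction of CCND1, was at 10.2 and 10.1 TPM in control cells and at 12.7 and 12.1 TPM in KO+OE cells. Both KO+OE libraries were above both controls, with a log2 difference of 0.27 (interval 0.07 to 0.48), limma's unadjusted p = 0.0197 and adjusted p = 0.928. AMBRA1, another receptor for D-type cyclins, had the lowest difference among the genes tested, -0.12, from 13.3 and 14.5 TPM to 12.6 and 12.8 TPM. FBXW7, the receptor for CCNE1, was at 1.2 and 0.75 TPM in control cells and at 0.62 and 0.68 TPM in KO+OE cells, a lower difference of -0.25 without overlap, but its mean was under the minimum and it was not tested. SKP2, a receptor for p27, was at 33.7 to 35.6 TPM. Of 10 tested, 6 had a difference above 0 and 4 below, with a median of 0.02.

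Genes that E2F factors are known to switch on at the G1/S transition include those for DNA replication and nucleotide supply. All 20 listed were tested, 10 with a difference above 0 and 10 below, with a median of -0.0029. RRM2, the small subunit of ribonucleotide reductase, was at 30.3 and 33.2 TPM in control cells and at 26.3 and 28.5 TPM in KO+OE cells, a log2 difference of -0.21 (interval -0.40 to -0.01) with limma's unadjusted p = 0.0433 and adjusted p = 0.928. The extremes of the list were MCM4, a subunit of the replicative helicase, at 0.18 and DTL, an adaptor for the destruction of CDT1, at -0.33, and neither passed. In DTL a single library was low, with 4.30 TPM in KO+OE replicate 1 against 6.67 to 7.46 TPM in the other libraries, and the difference was -0.05 without it. In MCM4 the same library was high, with 39.3 TPM against 29.2 to 32.7 TPM, and the difference was 0.03 without it and 0.34 without KO+OE replicate 2. PCNA, the sliding clamp of DNA polymerase, was at 49.1 to 50.9 TPM.

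The remaining cyclins and kinases of the cycle and the regulators of kinase phosphorylation gave 0 genes at an unadjusted p under 0.05 in limma. Over all tested genes 5.33% passed that threshold. CDK3, a kinase linked to exit from G0, had the highest difference of the first list, 0.27, with KO+OE replicate 1 at 3.27 TPM and the other libraries at 1.71 to 1.98 TPM. CDK1, the kinase of mitosis, had the lowest, -0.10, at 3.95 TPM in both controls and 3.33 and 3.92 TPM in KO+OE cells, and -0.0088 without KO+OE replicate 1. Its partner CCNB1 was at 140 to 150 TPM, and the transcript of CDK1 held 35.4% G and C against 41.9% in CCNB1. The part of base composition in these 2 levels was not tested. Of these 8 genes, 5 had a difference above 0 and 3 below, with a median of 0.02. Of the 4 phosphatases and kinases that act on CDK phosphorylation, WEE1, which adds the phosphate that CDC25 enzymes remove, was the highest at 0.10, with 22.9 and 22.8 TPM in control cells and 25.7 and 23.4 TPM in KO+OE cells, and 0.03 without KO+OE replicate 1. CDC25C, the mitotic relative of CDC25A, was the lowest at -0.10, with 20.1 and 20.5 TPM in control cells and 20.9 and 17.0 TPM in KO+OE cells, and the list's median was -0.02.

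**Figure D5:**
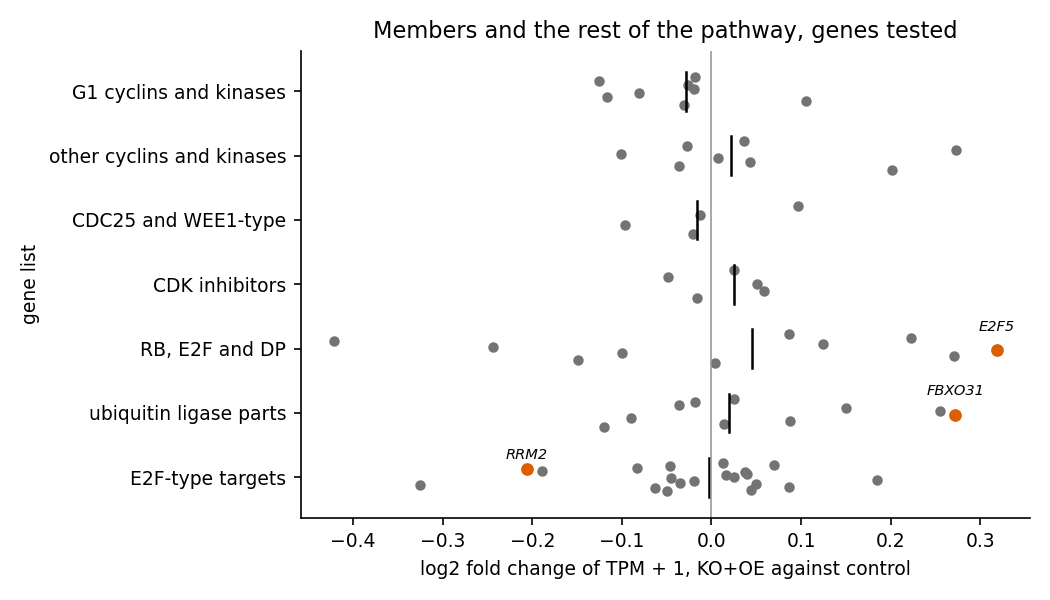
Log2 difference of TPM + 1, KO+OE against control, for each tested gene of the G1 cyclins and kinases and of the 6 pathway lists, with list medians as vertical bars and the 3 genes at an unadjusted p under 0.05 in orange. The medians run from -0.03 to 0.05, and the G1 cyclins and kinases lie between -0.13 and 0.11.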

How the data were processed

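Poly(A+) RNA was sequenced as paired reads on a NovaSeq. The authors' processing notes in the labels name HISAT2, featureCounts, Subread, DESeq2 and hg38, with no version or role. The authors deposited 1 table of values rounded to 0.01, taken here to be TPM. The unit was inferred from the values, since decimals and near-equal column sums exclude counts. They do not show that reads were divided by transcript length. How TPM was computed and the annotation version are not given in the sources used here. TPM keeps no depth, so no counting interval could be given, and the study's count test was not run. No column of other samples (0) was present.

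Groups and replicate numbers came from the sample titles and were matched to the columns. Symbols were taken from the table. Positions came from the RefSeq gene table for GRCh38.p14, and base composition, length and overlaps from GENCODE 44 transcripts on GRCh37, used for no coordinates. limma 3.58.1 in R 4.3.3 was run on log2(TPM + 1), with a trend in the prior and the group as the only term, on genes that averaged 1 TPM or more. It was two-sided and called genes at adjusted p under 0.05. It had been tested on simulated data with planted changes of 2-fold or more, larger than any difference of the members. Figures used Python 3.11.15 with matplotlib 3.10.9. The members and lists were chosen with earlier results of these data known. Beside the 10 members, the genes named were those of the lists with an unadjusted p under 0.05, the extremes of each list, the 3 genes nearest to CCND1 and CCNE1, and NUDT21. CDKN1A, RB1, RBL1, E2F1, CDKN2B, CDKN2C, FBXW7, SKP2, PCNA, CCNB1 and the overlapping genes were added for their roles or positions after values were seen. There were 12 alternatives to the processing: pseudocounts, filters, scalings, the prior, a replicate block and leaving out each library.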

Additional observations from a re-analysis of the deposited data

How the results depend on the processing

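The members gave 0 calls, adjusted or unadjusted, in limma under all 12 alternatives, and their signs held under each alternative that kept all 4 libraries. Over all genes, without control replicate 2, 9 genes passed the adjusted threshold instead of 1, with no filter 1314 instead of 656 passed the unadjusted one and with a filter at a mean of 5 TPM 412, and 6 alternatives with all libraries gave 0 adjusted calls. Taken over all 12319 tested genes, the deviations of same-numbered libraries were close to uncorrelated (r = -0.0485). That value does not describe single genes, and CDK10, given below, followed the replicate number in both groups. With a replicate block in the fit, 0 genes passed the adjusted threshold and 673 the unadjusted one, and no member was called.

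Leaving out a library moved the log2 difference over these ranges: CCND1 0.01 to 0.20, CCND2 -0.259 to 0.0264, CCND3 -0.214 to 0.0521, CCNE1 -0.0892 to 0.0507, CCNE2 0.000067 to 0.081, CDK2 -0.282 to 0.0305, CDK4 -0.0662 to 0.0302, CDK6 -0.257 to 0.13, CDC25A -0.131 to 0.0792 and CCNA2 -0.0636 to 0.0026. The sign turned in the same way for CDC25C (-0.24 to 0.0445), CDK3 (-0.0421 to 0.59), CDKN2A (-0.23 to 0.13) and NUDT21 (-0.0121 to 0.0656). The D-to-E log2 difference ran from -0.14 to 0.12, and was -0.0043 after quantile normalization. CCNE2 gave 0.26 with a pseudocount of 0.1. With a library left out, list medians ran from -0.0241 to 0.0655 for CDK inhibitors and -0.0015 to 0.0361 for other cyclins and kinases. They ran from 0.0073 to 0.0597 for RB, E2F and DP factors and -0.0069 to 0.0470 for ubiquitin ligase parts. For CDC25 and WEE1-type genes the range was -0.0407 to 0.0162, and for E2F-type targets -0.0047 to 0.0064. With other settings, the median of E2F-type targets was 0.0098 after rescaling by median ratios, that of other cyclins and kinases -0.0269 over 3 genes at 5 TPM or more, and that of RB, E2F and DP factors 0.0041 over 13 genes with no filter. The cause of these shifts was not tested. A lone library left in a group is assumed to vary like the other group. With unknown depth and 2 libraries in each group, levels under 1 TPM and differences inside the intervals given could not be resolved.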

Other observations

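The G1 genes stand in larger families, listed here from the gene descriptions in the table after values were seen. Of 26 cyclins, 19 were tested, and of 21 genes described as cyclin dependent kinases, 18 were tested. In neither family did a gene pass an unadjusted p under 0.05 in limma, where 5.33% of all tested genes did. At the adjusted threshold 0 passed, against 0.00812% of all tested genes. CCNB1 at 146 TPM and CCNB2 at 95.3 TPM, the mitotic cyclins, and CCNI at 93.9 TPM had the highest means of the cyclins, all above CCNE1, the highest of the G1 cyclins, at 23.8 TPM. Among the kinases, only CDK16, a relative with roles outside the core cycle, had a higher mean than CDK4, at 240 TPM and 231 to 245 TPM over the 4 libraries. CDK15 was listed at 0 in all 4 libraries and CCNB3 had a mean of 0.005 TPM.

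CDK10, which binds CCNQ, split the libraries across the groups. It was at 78.0 TPM in control replicate 1 and 94.2 TPM in KO+OE replicate 1, but at 31.0 and 32.5 TPM in replicates 2 of control and KO+OE cells, for a log2 difference between the groups of 0.17 (interval -1.46 to 1.79). CDK4 over the same libraries ran from 194 to 208 TPM. The largest difference above 0 among the tested cyclins was that of CCNL1, a cyclin linked to splicing, at 2.65 and 2.11 TPM in control and 3.16 and 3.37 TPM in KO+OE cells, a log2 difference of 0.34 with limma's unadjusted p = 0.0771 and adjusted p = 0.931. CDK19 had the lowest difference among the kinases, -0.64, where control replicate 2 stood at 6.13 TPM and the other libraries at 1.93 to 2.39 TPM. CDK20 had the highest among the tested kinases, 0.48, with limma's unadjusted p = 0.0787 and adjusted p = 0.931. It was at 1.72 and 1.36 TPM in control and 3.16 and 2.01 TPM in KO+OE cells.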
